A study of Mus musculus with 27 samples.

Results

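The collagens that neither form the main fibrils nor make up the basement membrane network were followed after volumetric muscle loss (VML), the surgical removal of a volume of muscle too large to regrow. The genes were chosen by name, with earlier results of these data known. Shares of all genes given beside their counts are therefore a description and not an independent test. Of the 54532 genes in the table, 10 carried these names: Col6a1, Col6a2, Col6a3, Col12a1, Col14a1, Col15a1, Col16a1, Col18a1, Col13a1 and Col8a1. All 10 had an FPKM (fragments per kilobase of gene, scaled to the number of fragments sequenced) of at least 0.5 in at least 5 samples and entered the test with 14630 genes in all. The muscle was the tibialis anterior of male C57BL/6 mice aged 8 weeks, of which 40% was cut out, and polyadenylated RNA was sequenced from 5 uninjured muscles and from 5, 6, 6 and 5 muscles at day 3, day 7, day 14 and day 21 after injury. All groups shared strain, sex and muscle, and no transgene or drug was involved. The series' design text and the study's methods differ on whether 1 or both legs were operated on, and the labels do not say whether each sample came from a separate animal, so the p-values measure the spread between these samples.

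Collagen VI is built from 3 chains, encoded by Col6a1, Col6a2 and Col6a3, that assemble inside the cell before secretion and form beaded microfilaments around muscle fibres. Mutations in its genes cause inherited muscle disease. The fibril-associated collagens with interrupted triple helices (FACITs), which include collagens XII, XIV and XVI, sit on the surface of collagen fibrils or link them to their surroundings. Collagens XV and XVIII, the multiplexins, are proteoglycans of the basement membrane zone, and the end fragment of collagen XVIII is endostatin. Collagen XIII spans the plasma membrane and in muscle is known from the neuromuscular junction. Collagen VIII is a short-chain, network-forming collagen of vessel walls, and so is neither fibril-associated nor transmembrane.

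Of these genes, 4 lie on chromosome 10, all on the minus strand (coordinates as deposited, which match GENCODE M21 on GRCm38 for all 10 genes). Col6a2 (ENSMUSG00000020241) spans chr10:76595762-76623630, Col6a1 (ENSMUSG00000001119) chr10:76708792-76726168, Col18a1 (ENSMUSG00000001435) chr10:77052178-77166548 and Col13a1 (ENSMUSG00000058806) chr10:61838236-61979108. Col6a2 and Col6a1 are 85161 bases apart, and Col6a1 and Col18a1 are 326009 bases apart. The third collagen VI chain is elsewhere, at chr1:90765923-90843971 (Col6a3, ENSMUSG00000048126). Col15a1 (ENSMUSG00000028339, chr4:47208161-47313167) and Col16a1 (ENSMUSG00000040690, chr4:130047840-130099283) share chromosome 4, while Col12a1 (ENSMUSG00000032332) is at chr9:79598991-79718831, Col14a1 (ENSMUSG00000022371) at chr15:55307750-55520803 and Col8a1 (ENSMUSG00000068196) at chr16:57624258-57754737.

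RefSeq promoters (GRCm38.p6) matched 8 of the 10 genes, all but Col12a1 and Col14a1. The 250 bases before the start of 3 of them are shown because 2 belong to collagen VI chains that were found to rise together and the third to Col13a1, whose time course differed from theirs. Each is written 5′ to 3′ on the minus strand, with capitals for a match on either strand to a GC box (GGGCGG), the TATA box (TATAAA), the CCAAT motif or an AP-1 site (TGANTCA).
Col6a2, chr10:76623631-76623880: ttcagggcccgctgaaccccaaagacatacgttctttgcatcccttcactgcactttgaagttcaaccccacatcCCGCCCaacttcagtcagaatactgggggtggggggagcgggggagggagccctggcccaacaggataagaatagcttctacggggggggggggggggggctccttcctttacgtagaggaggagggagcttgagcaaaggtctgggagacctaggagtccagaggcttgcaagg
Col6a3, chr1:90843972-90844221: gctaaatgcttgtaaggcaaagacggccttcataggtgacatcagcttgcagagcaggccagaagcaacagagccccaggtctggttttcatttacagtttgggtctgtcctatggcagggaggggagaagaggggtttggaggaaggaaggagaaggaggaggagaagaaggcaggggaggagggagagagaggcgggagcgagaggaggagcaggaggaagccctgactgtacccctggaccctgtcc
Col13a1, chr10:61979109-61979358: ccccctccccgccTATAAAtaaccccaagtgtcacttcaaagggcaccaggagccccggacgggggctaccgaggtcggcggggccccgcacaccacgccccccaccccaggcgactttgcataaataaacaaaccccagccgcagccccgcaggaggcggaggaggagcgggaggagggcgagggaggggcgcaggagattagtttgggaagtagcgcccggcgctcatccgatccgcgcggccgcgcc
The Col6a2 window shown holds 1 GC box, and a second Col6a2 window, chr10:76623405-76623654, holds 3. The Col6a3 window holds none of the 4 motifs. The Col13a1 window holds a TATAAA match near its 5′ end, away from the gene start. Among the windows nearest the gene start, a GC box was present in 4 of 8 genes against 32.7% of all 32851 RefSeq promoter windows of the same length, and a TATA box in 1 of 8 against 12.4%. CCAAT was present in 2 of 8 windows against 33.8%, and the AP-1 motif in 1 of 8, that of Col6a1, against 6.75%. These matches describe letters only.

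Sequencing gave 14376395 to 24436763 reads counted to genes per sample, with a median of 17398586. The deposited FPKM were scaled by a denominator that was 0.747 to 0.819 times a sample's own read total in uninjured muscle and 1.14 to 1.48 times at day 3, so that levels per own total would be higher at day 3 than the FPKM given here. Muscle fibre markers such as Ckm and Acta1 were high in uninjured muscle, where the 6 markers summed to between 64874 and 77857 FPKM. Several samples resembled another group more than their own over all tested genes, among them day 3 replicate 5, which was nearest to day 14, all 6 day 7 samples, and day 14 replicates 2, 3 and 6 and day 21 replicate 3. Of the day 7 samples, replicates 4 and 5 were nearest to day 3. Day 7 replicate 5 and day 3 replicate 5 also differed from the rest of their groups in macrophage markers, with summed FPKM of 724 and 183, against 23.01 to 221 in the other day 7 samples and 403 to 694 in the other day 3 samples. Results that rest on these 2 libraries are given with and without them.

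Most of the 10 collagens were higher than in uninjured muscle from day 3 to day 14, by a median difference that was smaller at each later time. In limma on log2(FPKM + 1), with Benjamini-Hochberg adjustment over all 14630 genes, 8 of 10 were higher at day 3, against 23.4% of all tested genes. At day 7, 9 of 10 were higher (15% of all genes), at day 14, 8 of 10 (9.02%), and at day 21, 1 of 10 (1.74%). None was lower at an adjusted p under 0.05, where 19.8%, 14.4%, 11.3% and 1.69% of all genes were lower and 43.2%, 29.4%, 20.3% and 3.43% were called in either direction, and at the unadjusted level of 0.05 the numbers were 9, 9, 9 and 6 of 10, all higher, against 26.5%, 21.8%, 16.3% and 9.23% of all tested genes higher at that level. The median log2 fold change of the 10 genes was 1.95, 1.72, 1.18 and 0.63 at the 4 times in order, beside 0.01, 0.03, 0.02 and 0.01 over all tested genes. Genes of which every sample exceeded every uninjured sample numbered 8, 6, 7 and 6 of 10 in the same order, against 19.8%, 7.25%, 7.67% and 5.26% of all tested genes. In bulk tissue, more cells of a type and more RNA per cell cannot be told apart. Without day 3 and day 7 replicate 5, the numbers called higher were 9, 9, 8 and 1, the added call being Col13a1 at day 3. In that fit 23.8%, 12.4%, 11.6% and 2.52% of all tested genes were higher.

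**Figure D1:**
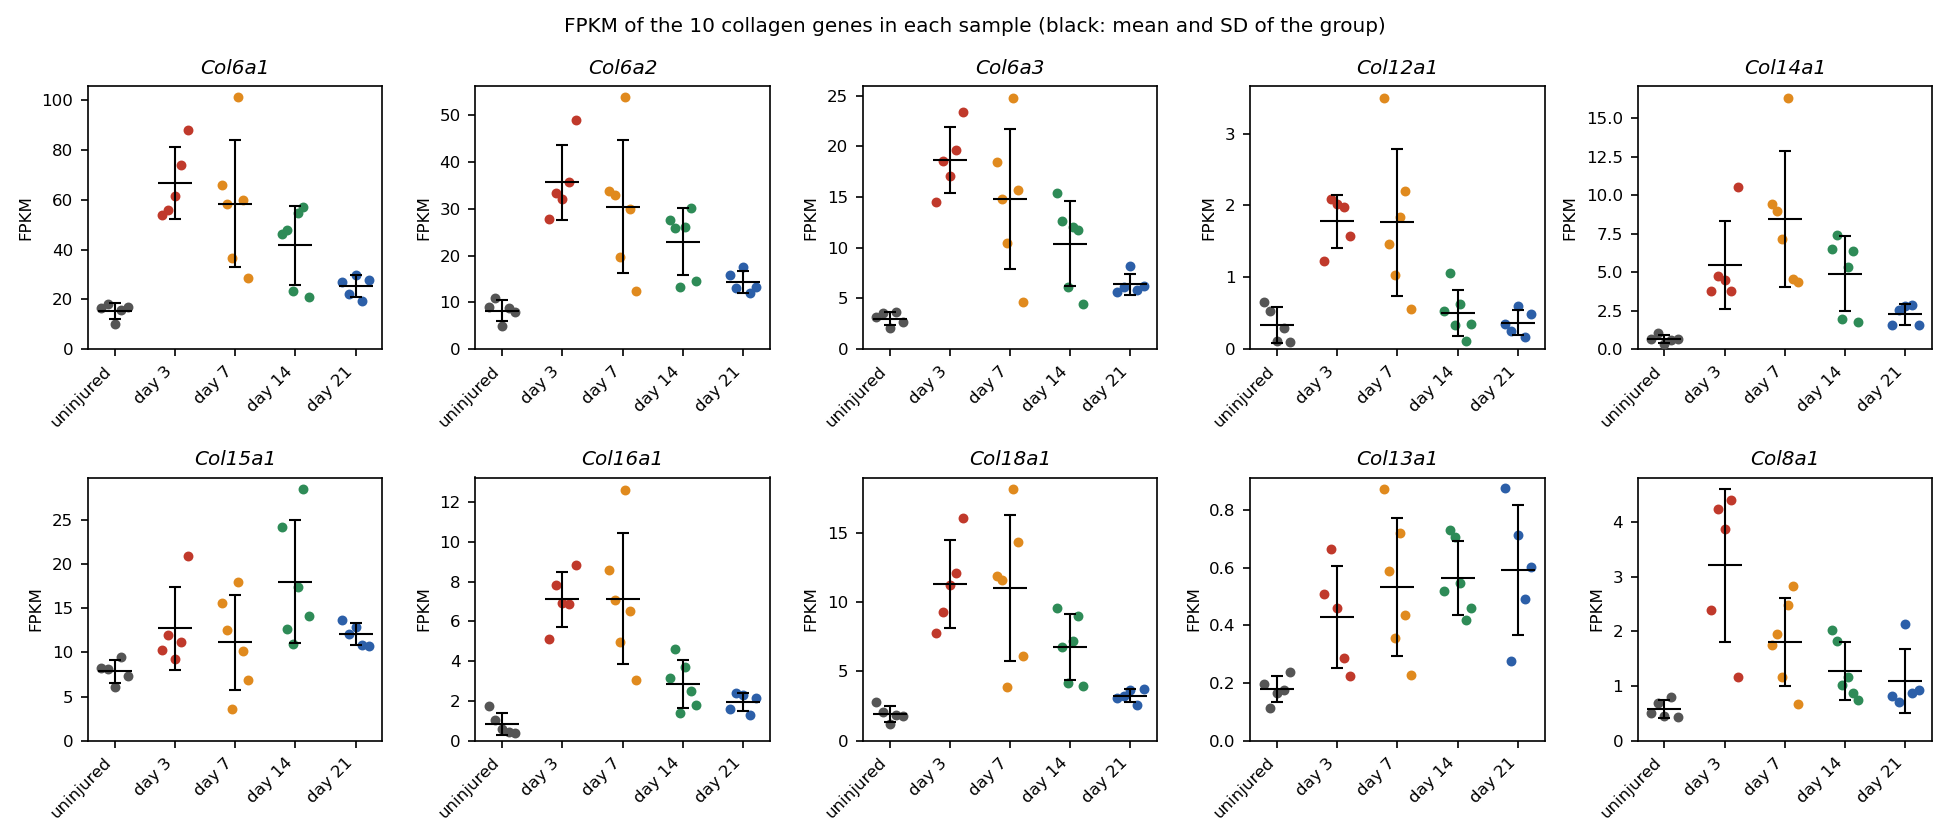
FPKM (vertical axes, linear from 0) of each of the 10 collagen genes in every sample of the 5 groups, with the group mean and SD in black. Col6a1 reached 53.8 to 88.0 FPKM at day 3 from 9.90 to 18.1 in uninjured muscle, Col15a1 was highest at day 14, and Col13a1 stayed under 0.9 FPKM throughout.

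The 3 collagen VI chains rose together at day 3 and were still above uninjured muscle at day 14. Col6a1, the α1 chain, measured 16.5, 18.1, 9.90, 15.8 and 16.9 FPKM in uninjured muscle and 53.8, 55.9, 61.6, 74.2 and 88.0 FPKM at day 3. Every day 3 sample was above every uninjured one, and the log2 fold change was 2.04 ± 0.29 (SE), with an adjusted p of 6.84e-06. At day 7 the 6 samples ran from 28.5 over a median of 59.1 to 101.2 FPKM, and at day 14 from 20.8 over 47.1 to 56.9. The lowest of these was still above the highest uninjured sample, and Col6a1 rose by log2 1.77 ± 0.27 and 1.30 ± 0.27 against uninjured muscle. At day 21 the samples held 26.9, 22.1, 29.9, 19.4 and 27.9 FPKM, each above all uninjured samples. The log2 fold change of 0.68 ± 0.29 did not pass, with an adjusted p of 0.180 in limma, while the exact permutation test of this gene alone gave p = 0.00794, the smallest that 5 against 5 samples allow.

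Col6a2, the α2 chain, followed the same course at a lower FPKM. It measured 8.97, 10.8, 4.85, 8.71 and 7.84 FPKM without injury and 27.8, 33.5, 32.2, 35.8 and 49.1 FPKM at day 3, a log2 rise of 2.0 ± 0.28. It rose by log2 1.67 ± 0.27 at day 7, when the samples ran from 12.4 over 31.5 to 53.8 FPKM, and by 1.35 ± 0.27 at day 14, when they ran from 13.2 over 26.0 to 30.3. At day 21 the 5 samples (15.9, 12.99, 17.5, 12.04 and 13.2 FPKM) lay above the uninjured range without passing the test (log2 0.76 ± 0.28, adjusted p = 0.129). Levels of Col6a2 and Col6a1 had a Pearson correlation of 0.986 over the 27 samples, a description of libraries that share their injury groups.

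Col6a3, the α3 chain and the longest of the 3, had the steepest early rise of the collagen VI genes. It measured 3.19, 3.53, 2.05, 3.65 and 2.63 FPKM without injury and 14.5, 18.6, 17.1, 19.6 and 23.4 FPKM at day 3. The log2 fold change was 2.29 ± 0.30, 1.85 ± 0.29 and 1.43 ± 0.29 to day 14, with adjusted p of 2.87e-06, 7.88e-05 and 0.00178. Day 7 samples ranged from 4.64 over 15.3 to 24.8 FPKM and day 14 samples from 4.50 over 11.9 to 15.4, in each case above every uninjured sample. At day 21 the samples held 5.66, 6.16, 8.21, 5.80 and 6.23 FPKM, a log2 difference of 0.89 ± 0.30 with an adjusted p of 0.0912.

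Because the 3 chains enter the same molecule, their FPKM were also set against each other within each sample, by pairs chosen after the values were seen. Tests of these ratios therefore describe differences already seen and are no separate evidence of them. The Col6a2 to Col6a1 ratio was 0.544 (median) without injury and 0.523, 0.524, 0.554 and 0.588 at the 4 times, and none of its exact permutation tests passed (raw p from 0.246 to 0.841 against uninjured muscle). The Col6a3 to Col6a1 ratio was 0.195 without injury, with a range of 0.155 to 0.230, and 0.270 at day 3, with a range of 0.265 to 0.333. All 5 day 3 samples lay above all uninjured ones, a log2 difference of 0.53 (exact permutation p = 0.00794, adjusted p = 0.0371 over 20 ratio tests). The medians of 0.258, 0.240 and 0.274 at day 7, day 14 and day 21 had adjusted p of 0.130, 0.0945 and 0.0794 in the same exact permutation tests.
The level of a ratio depends on the gene length used. The deposited length of Col6a2, 8326 bases, is 2.11 times that of its longest coding transcript, and with transcript lengths the uninjured Col6a2 to Col6a1 ratio became 1.07 and the Col6a3 to Col6a1 ratio 0.216. Differences between groups do not depend on length.

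**Figure D2:**
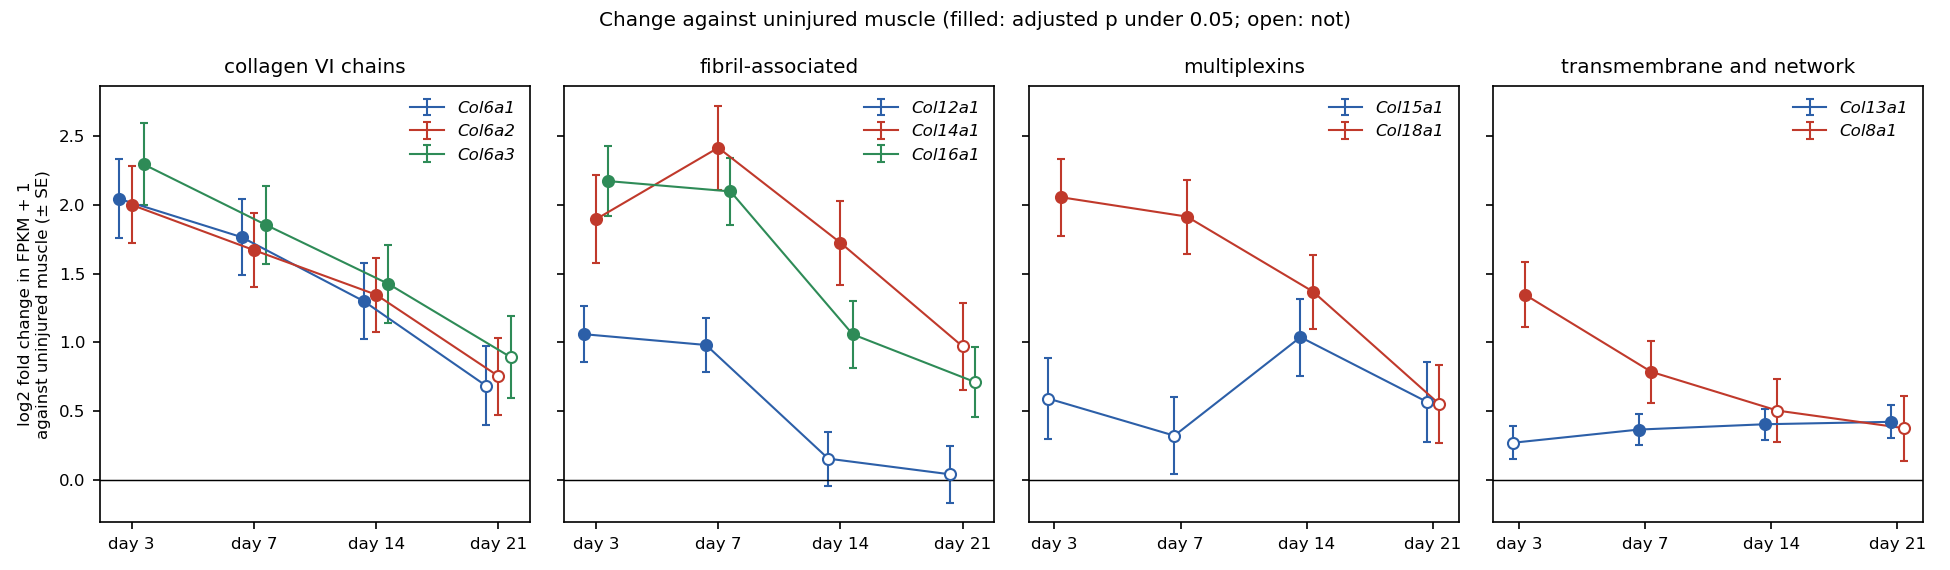
Log2 fold change in FPKM + 1 against uninjured muscle (vertical axis, ± SE from limma) at each time, by role of the collagen, with filled points for an adjusted p under 0.05 and open points for the rest. The points of the collagen VI chains run nearly parallel and are highest at day 3, Col14a1 is highest at day 7 with 2.42, Col15a1 at day 14 with 1.04, and Col12a1 ends at 0.04.

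Among the FACITs, Col14a1 and Col16a1 rose strongly and stayed up to day 14, whereas Col12a1 was called at day 3 and day 7. Col14a1 encodes collagen XIV, a fibril-surface collagen of tendon, skin and muscle connective tissue. It measured 0.664, 1.04, 0.304, 0.591 and 0.643 FPKM without injury and 3.75, 4.74, 4.47, 3.78 and 10.6 at day 3. At day 7 it ran from 4.34 over 8.05 to 16.3 FPKM, the highest mean of the 5 groups, and at day 14 from 1.78 over 5.84 to 7.43. Every injured sample to day 14 exceeded every uninjured one. The log2 fold changes were 1.90 ± 0.32, 2.42 ± 0.30 and 1.72 ± 0.30, with adjusted p of 4.96e-05, 8.42e-06 and 6.43e-04. At day 21 the samples held 1.54, 2.52, 2.77, 2.89 and 1.55 FPKM, all above the uninjured range, with a log2 fold change of 0.97 ± 0.32 and an adjusted p of 0.0852. The day 3 value of 10.6 belonged to replicate 5, the library nearest to day 14, and without that library and day 7 replicate 5 the day 3 rise was 1.66 and the day 7 rise 2.54.

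Col16a1 encodes collagen XVI, which connects cells and fibrils in several tissues. Uninjured samples held 1.74, 1.02, 0.593, 0.421 and 0.405 FPKM and day 3 samples 5.09, 7.81, 6.90, 6.88 and 8.84. Day 7 samples ran from 3.06 over 6.82 to 12.6 FPKM, so that both groups lay wholly above the uninjured one. The log2 rise was 2.17 ± 0.26 at day 3 (adjusted p = 8.87e-07) and 2.10 ± 0.25 at day 7. Between day 7 and day 14 Col16a1 fell by 1.04 on the log2 scale (SE 0.23, adjusted p = 0.0475), to between 1.40 and 4.61 FPKM with a median of 2.81, which was still higher than uninjured muscle by 1.06 ± 0.25. At day 21 it measured 1.60, 2.38, 2.30, 1.30 and 2.12 FPKM, with 3 of 5 samples above the uninjured range (log2 0.71 ± 0.26, adjusted p = 0.117).

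Col12a1 encodes collagen XII, found on fibrils in tendon, ligament and the muscle sheath. It was low throughout, at 0.661, 0.530, 0.118, 0.288 and 0.103 FPKM without injury, from 21 to 139 reads per sample. At day 3 the samples held 1.23, 2.08, 2.03, 1.97 and 1.58 FPKM, all above the uninjured ones, and at day 7 they ran from 0.553 over 1.65 to 3.49, with 5 of 6 above. On the log2(FPKM + 1) scale, which understates the change of such low genes, the rise was 1.06 ± 0.21 and 0.98 ± 0.20 (adjusted p = 2.12e-04 and 9.63e-04), while the mean FPKM was 5.23 and 5.18 times the uninjured mean. Between day 7 and day 14 it fell by 0.83 (SE 0.19, adjusted p = 0.0477). At day 14 it ran from 0.111 over 0.439 to 1.05 FPKM, and at day 21 it measured 0.346, 0.252, 0.599, 0.162 and 0.488 FPKM, overlapping the uninjured range at both times (adjusted p = 0.601 and 0.935).

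Col12a1 and Col16a1 were the only 2 of the 10 genes called between consecutive times, where 0.219% of all tested genes were called lower from day 7 to day 14. Both calls stood close to the threshold. The Col12a1 call was lost in 9 of 12 fits that left out 1 sample of day 7 or day 14, with an adjusted p up to 0.137 without day 7 replicate 5. That of Col16a1 was lost in 10 of 12, with an adjusted p up to 0.132 without day 14 replicate 3. No gene of the 10 was called from day 3 to day 7 or from day 14 to day 21 in limma, where 0.0478% and 0% of all tested genes were called in either direction. At an unadjusted p under 0.05 these numbers were 1 and 4 of 10, against 15.7% and 6.21% of all tested genes. At an adjusted p under 0.05, voom on the recovered reads also called 0 and 0 of 10. The low share from day 3 to day 7 depended on 2 libraries. Without day 3 and day 7 replicate 5, limma called 2265 of 14630 genes there in either direction. Of the 10 collagens it then called 1, Col8a1, lower.

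The ratio of Col12a1 to Col14a1 sets 2 fibril-surface collagens side by side. This pair too was chosen after the values were seen, so its tests describe a difference already seen and are no separate evidence of it. The ratio was 0.488 in the median without injury, within a range of 0.160 to 0.995, and 0.439 at day 3 (exact permutation p = 0.540). At day 14 the median was 0.129, with a range of 0.0175 to 0.194 and 4 of 6 samples below all uninjured ones. The lowest ratio, in day 14 replicate 5, rested on 29 reads of Col12a1, and uninjured samples had 21 to 139. The log2 difference was -2.18 against uninjured muscle and -1.86 against day 3, each with an exact permutation p of 0.0130 and an adjusted p of 0.0371. At day 7 and day 21 the medians were 0.153 and 0.216, both with an adjusted p of 0.0945 in the exact permutation test. The day 7 log2 difference of -1.13 (exact permutation p = 0.0519, unadjusted) was -1.39 without day 7 replicate 5 and -1.49 without uninjured replicate 5, with unadjusted exact permutation p of 0.0238 and 0.0190.

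Of the 2 multiplexins, Col18a1 rose at day 3, day 7 and day 14, and Col15a1 passed the test at day 14. Col18a1 measured 2.76, 2.07, 1.19, 1.84 and 1.77 FPKM without injury and 7.74, 9.28, 11.2, 12.1 and 16.1 FPKM at day 3. Day 7 samples ran from 3.85 over 11.8 to 18.2 FPKM and day 14 samples from 3.94 over 6.97 to 9.58, and each sample of these 3 times exceeded all uninjured ones. The log2 rise was 2.06 ± 0.28, 1.91 ± 0.27 and 1.37 ± 0.27, with adjusted p of 4.87e-06, 2.73e-05 and 0.00156. At day 21 it measured 3.05, 3.19, 3.66, 2.60 and 3.75 FPKM (log2 0.55 ± 0.28, adjusted p = 0.273), with 4 of 5 samples above the uninjured range. Slc19a1, which overlaps Col18a1 on the opposite strand, had at most 2.10 FPKM, and the library did not keep the strand.

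Col15a1 was the member with the highest uninjured level after Col6a1 and Col6a2, at 8.21, 8.13, 6.05, 9.48 and 7.33 FPKM. At day 3 it measured 10.3, 11.9, 9.30, 11.2 and 20.9 FPKM, and at day 7 from 3.61 over 11.4 to 18.04, overlapping uninjured muscle at both times (log2 0.59 ± 0.29 and 0.32 ± 0.28, adjusted p = 0.105 and 0.402). At day 14 all 6 samples, from 10.9 over 15.8 to 28.6 FPKM, lay above the uninjured ones, and Col15a1 rose by log2 1.04 ± 0.28 (adjusted p = 0.0109). At day 21 it measured 13.7, 12.1, 12.8, 10.9 and 10.8 FPKM, again wholly above the uninjured range, without passing the test (log2 0.57 ± 0.29, adjusted p = 0.278). The day 14 against day 3 contrast was not among the fitted comparisons, and from day 7 to day 14 the difference of 0.72 ± 0.27 had an adjusted p of 0.282. The day 3 and day 7 values depended on the samples and on the scale. Without day 3 replicate 5, the sample at 20.9 FPKM, the day 3 value was 0.41 (adjusted p = 0.280), and the day 7 value ran from 0.16 without day 7 replicate 4 to 0.57 without day 7 replicate 3. With only the 2 groups compared, the day 3 value of 0.59 had an adjusted p of 0.0236, and with own read totals it was 1.19 with an adjusted p of 0.00979. With each sample scaled to a common sum of FPKM, which moves the median of all genes by 0.51 at day 3 and 0.48 at day 7, the fold changes of Col15a1 were 1.34 and 0.99 with adjusted p of 0.00902 and 0.0426.

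The within-sample ratio of Col15a1 to Col18a1 does not depend on that scale. The pair was chosen after the values of both genes were seen, so its tests describe the same difference and are no separate evidence of it. The ratio was 4.14 in the median without injury, within 2.97 to 5.15, and 1.29 at day 3, within 0.828 to 1.33. At day 7 it was 1.04, within 0.710 to 1.31, and at neither time did any sample reach the uninjured range. The log2 differences of -1.91 and -2.05 had exact permutation p of 0.00794 and 0.00433, the smallest that these group sizes allow, and an adjusted p of 0.0371. At day 14 the median was 2.58 (1.87 to 3.596), lower than in uninjured muscle by log2 -0.65 and higher than at day 3 by 1.25 (exact permutation, adjusted p = 0.0371 each). At day 21 it was 3.79 (2.87 to 4.50), and the difference of -0.16 had an exact permutation p of 0.405.

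**Figure D3:**
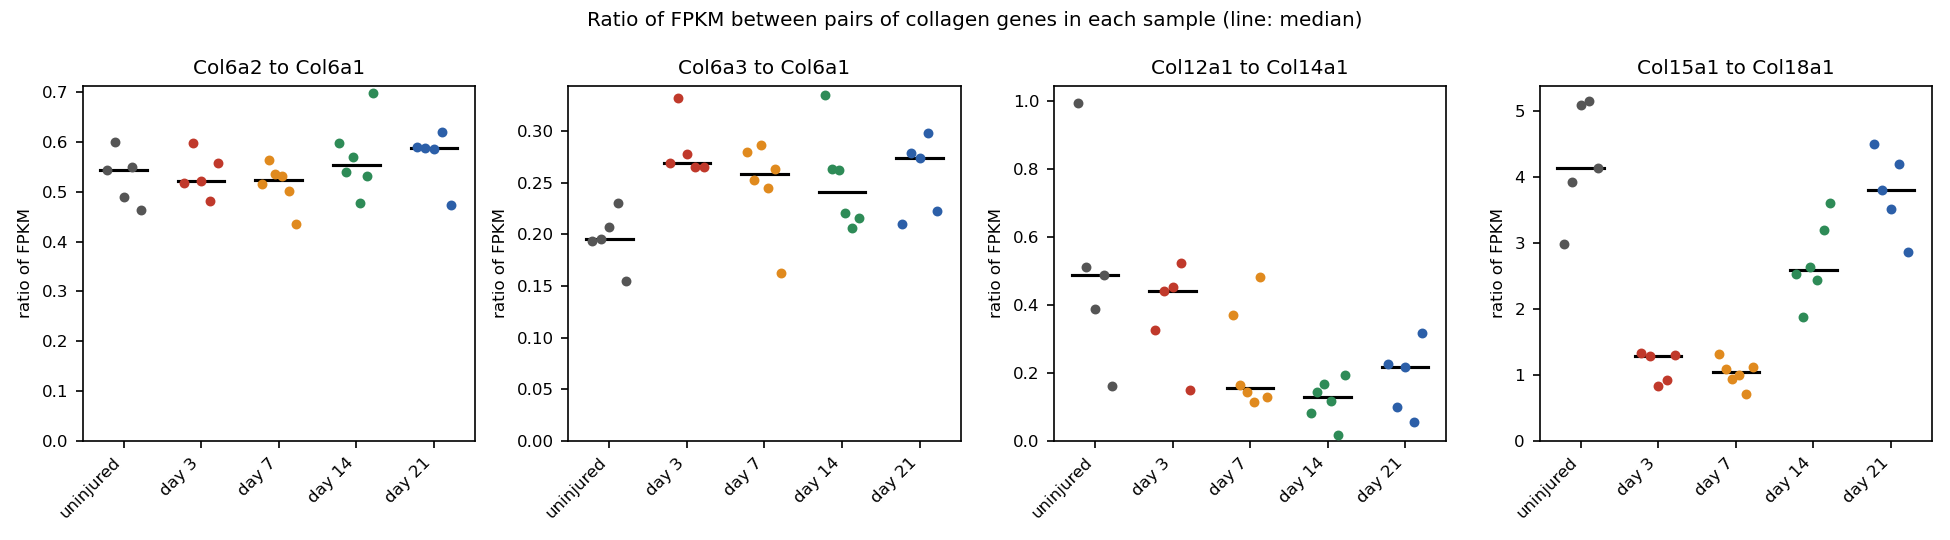
Ratio of FPKM between 4 pairs of collagen genes in each sample of the 5 groups (vertical axes, linear from 0), with the median of each group as a line. The Col15a1 to Col18a1 ratio falls from 4.14 to 1.29 and 1.04 at day 3 and day 7 and is 2.58 at day 14 and 3.79 at day 21, while the Col6a2 to Col6a1 ratio stays between 0.523 and 0.588 in the median.

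Col13a1, the transmembrane collagen, was the lowest of the 10 in uninjured muscle and the only one called at day 21 in the reported fit. It measured 0.196, 0.114, 0.167, 0.176 and 0.237 FPKM without injury, from 9 to 16 reads per sample, so that counting error is large. It reached 0.5 FPKM in 0 of 5 uninjured samples and in 2, 3, 4 and 3 samples at the 4 times in order. Col13a1 therefore entered the test only through the injured groups, and its calls as higher are not independent of that filter. Day 3 samples held 0.510, 0.664, 0.461, 0.286 and 0.225 FPKM, and 4 of 5 lay above the uninjured range (log2 0.27 ± 0.12, adjusted p = 0.0689, and 0.0387 without day 3 replicate 5). Day 7 samples ran from 0.227 over 0.513 to 0.873, with a rise of 0.37 ± 0.11 (adjusted p = 0.0179), and day 14 samples from 0.418 over 0.533 to 0.732, all above the uninjured ones, with a rise of 0.41 ± 0.11 (adjusted p = 0.0141). At day 21 the values were 0.875, 0.277, 0.712, 0.491 and 0.603 FPKM, all above the uninjured range. The log2 fold change was 0.42 ± 0.12 with an adjusted p of 0.0466, and the mean FPKM was 3.33 times the uninjured mean. The call at day 21 was lost in 9 of 10 fits that left out 1 sample, with adjusted p between 0.0558 and 0.123, and the exception was day 21 replicate 2. The day 7 call was lost without day 7 replicate 1 (adjusted p = 0.0502) and with only the 2 groups compared (adjusted p = 0.0522). With quantile scaling the values at day 7, day 14 and day 21 were 0.21, 0.25 and 0.32, and none passed (adjusted p = 0.193, 0.142 and 0.159).

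Col8a1, the network-forming collagen, rose at day 3 and day 7, with its highest mean at day 3. It measured 0.508, 0.690, 0.446, 0.798 and 0.427 FPKM without injury and 2.39, 4.24, 3.88, 4.40 and 1.16 at day 3, a rise of log2 1.35 ± 0.24 (adjusted p = 8.12e-05). At day 7 it ran from 0.676 over 1.85 to 2.83 FPKM, with 5 of 6 samples above the uninjured range and a rise of 0.79 ± 0.23 (adjusted p = 0.0114). At day 14, from 0.736 over 1.09 to 2.02 FPKM, and at day 21, with 0.817, 0.70, 2.14, 0.875 and 0.926 FPKM, the differences of 0.50 ± 0.23 and 0.38 ± 0.24 had adjusted p of 0.113 and 0.389. Without day 21 replicate 3, the sample at 2.14 FPKM, the day 21 value was 0.22 (adjusted p = 0.634). The day 14 difference passed in 4 alternative fits, with adjusted p down to 0.0296 with only the 2 groups compared. The lowest day 3 value belonged to replicate 5. Without that sample Col8a1 was lower at day 7 than at day 3 by log2 -0.78 with an adjusted p of 0.0327, against -0.56 and 0.218 with all samples.

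Within each group the order of FPKM, which divides by the deposited gene length, was led by Col6a1, and Col6a2 was below Col6a1 in every one of the 27 samples. This order turned with transcript lengths, by which Col6a2 was above Col6a1 in 20 of 27 samples and had the highest mean in each group, with a median ratio to Col6a1 of 1.03 to 1.16. Without injury the FPKM of Col6a2 and Col15a1 did not differ beyond their spread (3 of 5 samples in that order, and 5 of 5 with transcript lengths), and the same held at the low end for Col16a1, Col14a1, Col8a1, Col12a1 and Col13a1, whose neighbouring ranges overlapped. At day 3 the 3 collagen VI chains occupied the first 3 places by mean with either length. Their FPKM ranges did not overlap, but with transcript lengths Col6a2 and Col6a1 overlapped, at a ratio of 0.952 to 1.18 within samples. By day 14 Col15a1 had moved above Col6a3, in 6 of 6 samples, as it was in uninjured muscle in 5 of 5. Summed over the 10 genes, the median was 41.8 FPKM without injury and 149, 149, 125 and 67.6 FPKM at the 4 times. The collagen VI chains supplied 67.5% of the sum without injury and 74.3%, 71.3%, 67.4% and 68.8% at the 4 times.

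Other collagens gave the setting. The lists used left out the basement membrane collagens, among them Col4a1 and Col4a2. Of the 11 fibrillar collagen genes 10 were tested, and 7, 8, 6 and 3 were higher at day 3, day 7, day 14 and day 21, none lower, with median log2 fold changes of 1.99, 1.75, 0.97 and 0.81. Col1a1, a chain of the main fibrils, went from a mean of 23.7 FPKM to 297 at day 3 and 63.1 at day 21 (adjusted p = 2.72e-07 and 0.0392), and Col1a2 and Col3a1 were also still higher at day 21 (log2 1.25 and 1.61, adjusted p = 0.0284 and 0.0195). Col5a1, a regulatory fibril chain, was higher to day 14 (log2 1.47, adjusted p = 0.00112) and had log2 0.92 at day 21 (adjusted p = 0.0735). Of 16 other collagens outside both sets, 8 were tested, and 2, 3, 1 and 0 were higher and none lower, with medians of 0.0037, 0.26, 0.32 and 0.21. At day 21 none of the 8 had an unadjusted p under 0.05 either. Col6a6, a further collagen VI chain, averaged 0.393 FPKM without injury and 0.437, 0.629, 0.828 and 0.716 afterwards and was called at no time (adjusted p from 0.227 to 0.985), and Col6a5 was too low to test. Col8a2, the partner chain of Col8a1, averaged 0.240 FPKM without injury and rose at day 3 and day 7 (log2 0.56 and 0.61, adjusted p = 0.00893 and 0.00701). Col9a1, a FACIT of cartilage, averaged 0.488 FPKM and had log2 -0.48 at day 3 (adjusted p = 0.0657). Col20a1, and Col22a1, named after its values were seen, averaged 0.837 and 2.02 FPKM without injury. Neither was called at any time in limma (adjusted p from 0.276 to 0.986 and from 0.179 to 0.894).

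Of 7 receptors and partners of collagen VI, all tested, 4 rose at day 3, day 7 and day 14, and none was called at day 21 in limma, where 1 of 7 had an unadjusted p under 0.05. The medians were 1.01, 0.70, 0.62 and 0.35. The anthrax toxin receptors Antxr1 and Antxr2, which bind collagen VI at the cell surface, averaged 0.668 and 1.33 FPKM without injury and 2.96 and 3.68 at day 3 (log2 1.23 and 1.01, adjusted p = 7.28e-05 and 8.50e-05). Bgn, a small proteoglycan that binds collagen VI, went from 11.3 to 85.9 FPKM (log2 2.85, adjusted p = 5.36e-07) and stood at 20.1 at day 21 (adjusted p = 0.170). Cspg4, the NG2 proteoglycan, averaged 1.78 FPKM without injury and 2.34 at day 3 (adjusted p = 0.138). The fourth of the list to rise was Matn2, named after its values were seen, at log2 1.15 on day 3 (adjusted p = 6.15e-05). Of 7 general collagen receptors 6 were tested, and 3, 4, 2 and 1 rose at the 4 times. Itgb1, the shared β1 integrin chain, averaged 40.5 FPKM without injury and rose at day 3 and day 7 (log2 0.68 and 0.48, adjusted p = 0.00289 and 0.0331). Ddr2, a receptor kinase for fibrillar collagen, rose from 1.74 to 2.61, 3.00 and 3.43 FPKM at day 3, day 7 and day 14 (adjusted p = 0.0499, 0.00968 and 0.00427), and Itga11, an integrin chain of fibroblasts, at day 7 (log2 0.75, adjusted p = 0.0283). Itga1 had log2 -0.36 at day 3 (adjusted p = 0.0801).

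Since collagen XIII is a collagen of the neuromuscular junction, 11 junction genes were set beside Col13a1. At the 4 times 4, 5, 5 and 4 rose and 0, 1, 1 and 0 fell, with medians of 0.32, 0.33, 0.61 and 0.53. Musk, the receptor kinase of the junction, averaged 0.386 FPKM without injury and rose at day 3, day 7 and day 14 (log2 0.83, 0.89 and 1.05, adjusted p = 0.00763, 0.00651 and 0.00332). At day 21 it averaged 1.02 FPKM with an adjusted p of 0.223. Rapsn, the anchor of the acetylcholine receptor, fell at day 7 and day 14 from 25.2 to 16.6 and 17.3 FPKM (adjusted p = 0.0179 and 0.0352). Lrp4 and Dok7, the agrin receptor and a Musk adaptor, averaged 0.739 and 5.12 FPKM without injury and were called at no time (adjusted p from 0.461 to 0.998 and from 0.101 to 0.448). The 4 that rose at day 21 were the acetylcholine receptor subunits Chrna1, Chrnb1, Chrnd and Chrng, named here after their values were seen, with log2 fold changes of 2.62, 1.08, 2.55 and 3.10 (adjusted p = 0.0146, 0.0146, 0.00559 and 0.00370).

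The genes whose levels were most like each member over the 27 samples, by Pearson's r of log2(FPKM + 1), are a description of libraries that share their time points. For Col6a1 and Col6a2 the nearest was Sparc, a collagen-binding matrix protein (r = 0.971 and 0.964), followed by Col1a1 (0.967 and 0.962) and then by Col5a2 (0.959) and Col3a1 (0.951). Col6a3 was nearest to Col5a1 (0.968), Ccdc80 (0.963) and Bgn (0.963), Col18a1 to Sparc (0.964), Col1a1 (0.951) and Mest (0.946), and Col16a1 to Postn, encoding periostin (0.975), Col1a1 (0.970) and Thbs2 (0.962). Col14a1 was nearest to Col3a1 (0.954), Lum (0.951), which encodes the fibril proteoglycan lumican, and Igfbp4 (0.947). Col12a1 was nearest to Stac2 (0.927), Thbs2 (0.918) and Timp2 (0.906), and Col8a1 to Srpx2 (0.916), Sec61a1 (0.912) and Galns (0.906). Col15a1 had the basement membrane chains Col4a1 (0.959) and Col4a2 (0.942) nearest, and then Aplnr (0.895), the apelin receptor of endothelium. Col13a1 had no close match, the nearest being Eda2r (0.807), Ttc9 (0.796) and Gdf6 (0.787). Among the members themselves the median r with the other 9 was lowest for Col13a1 (0.424) and Col15a1 (0.480) and highest for Col6a2 (0.900), and the weakest pair was Col12a1 with Col15a1 (0.103). Correlations of deviations from the group means gave another order. By these the median r of Col15a1 was 0.603, with 0.850 for Col18a1 and 0.313 for Col12a1, that of Col13a1 was again the lowest (0.312), and the weakest pair was Col13a1 with Col14a1 (0.0977).

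Markers of the cell types that make these collagens, or that enter injured muscle, also moved with the groups. Of 7 fibroblast and fibro-adipogenic progenitor markers 4, 4, 4 and 1 rose and none fell. Pdgfra, the receptor that defines these progenitors, averaged 0.942 FPKM without injury and 2.46, 2.47 and 1.81 to day 14 (adjusted p = 1.66e-04, 4.98e-04 and 0.0163). Dpt rose at the same 3 times (log2 1.04, 1.53 and 1.14, adjusted p = 0.00576, 5.05e-04 and 0.00700), Pi16 at day 7 (log2 1.12, adjusted p = 0.00837) and Ly6a at day 3 (log2 0.73, adjusted p = 0.0339). Their summed FPKM ran from 120 to 145 without injury, and the ranges on days 3, 7, 14 and 21 were 167 to 377, 145 to 308, 123 to 289 and 151 to 210.
Of 6 endothelial markers none rose and 2, 1, 1 and 1 fell, with Kdr, a receptor of vascular endothelial growth factor, lower at all 4 times (log2 -1.33, -1.43, -0.87 and -0.90, adjusted p = 1.85e-05, 1.98e-05, 0.00349 and 0.0151). Tek was lower at day 3 (log2 -0.57, adjusted p = 0.0232), while Pecam1 averaged 16.4 FPKM without injury and 17.3 at day 3 and Cdh5 29.6 and 26.4 (adjusted p = 0.940 and 0.516). The endothelial sum ran from 73.5 to 89.5 FPKM without injury, against 48.8 to 106, 30.3 to 79.0, 55.6 to 144 and 69.1 to 98.2 in the 4 injured groups in order.

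Of 6 pericyte and smooth muscle markers 1 rose and 4 fell at day 3, 2 fell at day 7 and 1 at day 14, and none was called at day 21 in limma. Rgs5, a pericyte marker, averaged 100.4 FPKM without injury and fell at day 3 and day 7 (log2 -0.98 and -0.64, adjusted p = 0.00219 and 0.0400), and Kcnj8 fell to day 14 (log2 -1.35, -0.96 and -0.92, adjusted p = 6.18e-05, 0.00271 and 0.00559). Abcc9 fell at day 3 (log2 -0.89, adjusted p = 0.00141), and Pdgfrb averaged 9.31 FPKM without injury and 10.4 to 10.97 after it. Their sums overlapped between all groups, at 202 to 270 FPKM without injury and 219 to 258 at day 3. Of 4 tendon markers 3 were tested, and Scx, the tendon transcription factor, rose to day 14 (log2 2.37, 1.5 and 1.28, adjusted p = 1.06e-04, 0.00808 and 0.0281), while Tnmd and Thbs4 averaged 5.99 and 41.0 FPKM without injury and were called at no time. The tendon sum was 33.6 to 71.9 FPKM without injury and 70.0 to 138, 57.3 to 194, 37.1 to 147 and 30.7 to 132 FPKM in the injured groups by time.

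Of 5 macrophage markers 5, 4, 2 and 0 rose. Cd68 went from 1.61 to 144 FPKM at day 3, C1qa from 7.15 to 288, Csf1r from 1.27 to 29.5 and Adgre1 from 0.232 to 13.3 (adjusted p = 8.08e-07, 9.14e-08, 1.87e-06 and 6.84e-06). Their sum was 7.70 to 14.3 FPKM without injury, and over time it spanned 183 to 694, 23.01 to 724, 23.9 to 57.7 and 22.5 to 34.3. Skeletal muscle fibre markers fell, 6 of 6 at day 3, 3 at day 7, 1 at day 14 and none at day 21, with Ckm, muscle creatine kinase, at log2 -1.43 on day 3 (adjusted p = 0.00125). Of 3 adipocyte markers all rose at day 7 and none at the other times, and their sum reached 1.59 to 37.0 FPKM at day 7 against 0.249 to 2.17 without injury. None of 4 Schwann cell markers was called, and 1, 0, 0 and 0 had an unadjusted p under 0.05, but 2 day 7 samples stood apart, replicate 6 with a sum of 727 FPKM and replicate 3 with 84.3, against 1.81 to 11.9 in the other 4. Those 2 samples also had the lowest Col6a1 of day 7, 28.5 and 36.6 FPKM. The share of these cell types in the values of the 10 collagens was not tested.

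**Figure D4:**
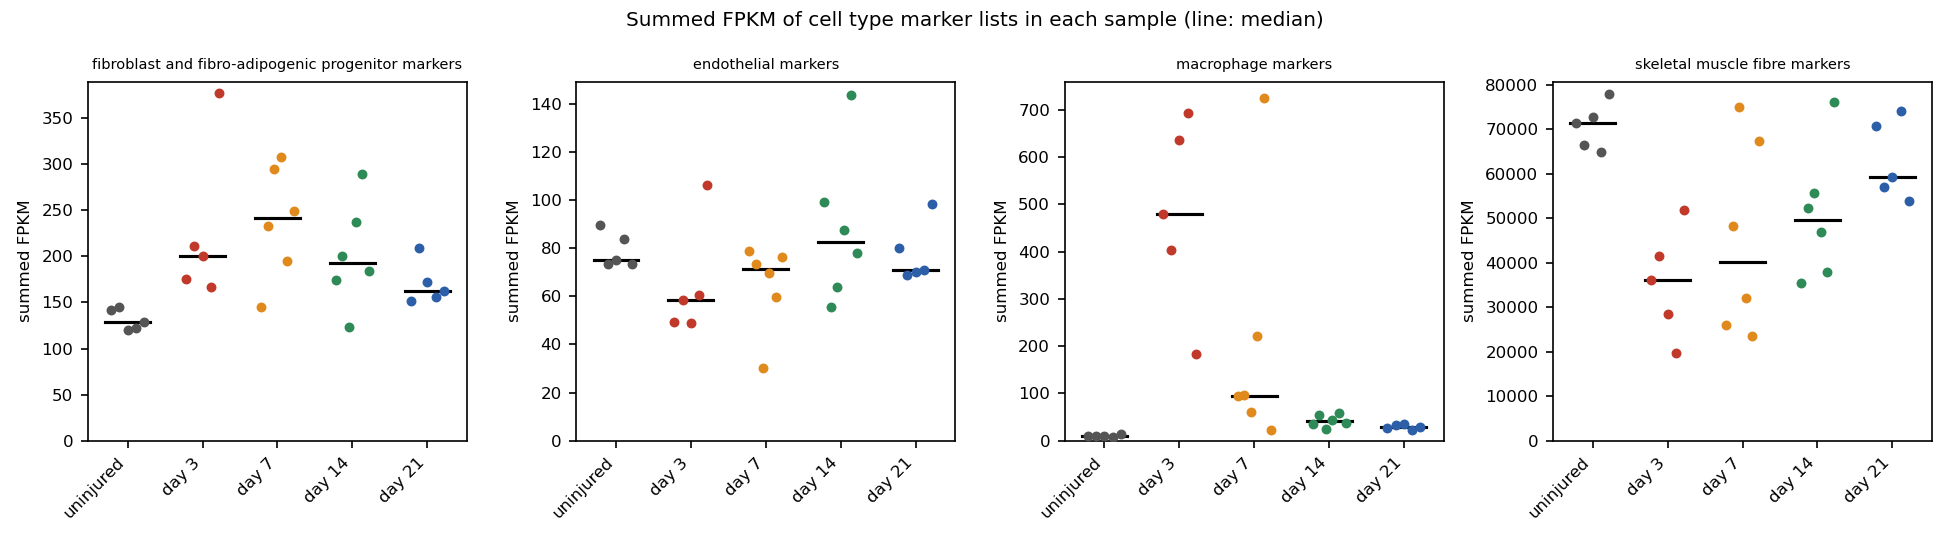
Summed FPKM (vertical axes, linear from 0) of 4 marker lists in each sample of the 5 groups, with the group median as a line. Median fibroblast and macrophage sums are higher after injury, the latter at 10.1 without injury and 479 at day 3. The fibroblast sums at day 7 and day 14 overlap the uninjured range of 120 to 145. Muscle fibre sums are lower at day 3, and the highest endothelial sum, 144, is in a day 14 sample.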

How the data were processed

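Polyadenylated RNA of 27 tibialis anterior samples was sequenced from non-directional libraries on a NovaSeq instrument. Per the labels and the submitters' processing notes, reads were aligned with HISAT2 2.0.5 and assigned to genes with featureCounts 1.5.0-p3, and the authors deposited FPKM per gene. The genome build was not given in the sources used here. FPKM were multiplied by the deposited gene lengths and divided by a step fitted for each sample, at first taking the smallest value as 1 read. Of the nonzero values below an upper limit, 100% then gave whole reads within 0.01. From these reads, sample depths (14376395 to 24436763 reads) were recovered. The exact precision of low genes is set by counting error and limited for Col13a1, with 9 to 108 reads per sample.

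Samples were grouped by their titles. Genes with at least 0.5 FPKM in at least 5 samples (14630) were tested with limma 3.58.1 in R 4.3.3 on log2(FPKM + 1), with 1 mean per group over all 27 samples, a trended empirical Bayes spread and Benjamini-Hochberg adjustment within each of 7 comparisons, two-sided, at 0.05. Fold changes are on that scale and understate changes of low genes. Ratios and single genes were compared with two-sided exact permutation tests (scipy 1.17.1) on log2 values, without a pseudocount for ratios. The text names all 10 collagens and for each the 3 most correlated other genes. Of the marker and pathway lists it names genes from the first 4 tested of each. Muscle fibre markers are named only in part, and adipocyte and Schwann cell markers not at all. Col6a5, Col22a1, Matn2, the acetylcholine receptor subunits and Slc19a1 were named in addition. The members and lists were chosen with earlier results of these data known. The fit was checked on simulated data. Alternatives were other pseudocounts (0.1 and 0.5) and filters, quantile, common-sum and median-ratio scaling, no trend, sample quality weights, only the 2 groups compared, replicate blocks and each sample left out. Added after seeing the data were scaling by own read total, voom on recovered reads, ratios and level orders by transcript length, and ratios with each sample left out. Promoters came from RefSeq (GRCm38.p6).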

Additional observations from a re-analysis of the deposited data

Results flagged for a closer look

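In 4 of 50 combinations of collagen and group, a single sample lay farther from its group than Dixon's 95% criterion allows, where chance alone would give about 1 in 20. Uninjured replicate 3 had 9.90 FPKM of Col6a1, against 15.8 to 18.1 in the other 4. Day 21 replicate 3 had 8.21 FPKM of Col6a3, against 5.66 to 6.23, and 2.14 FPKM of Col8a1, against 0.70 to 0.926. Over all genes this sample was nearest to uninjured muscle. Day 3 replicate 5 had 10.6 FPKM of Col14a1, against 3.75 to 4.74, and was over all genes nearest to day 14.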

How the results depend on the processing

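The calls of the 3 collagen VI chains, Col14a1, Col16a1 and Col18a1 at day 3, day 7 and day 14, of Col12a1 and Col8a1 at day 3 and day 7 and of Col15a1 at day 14 held under every alternative run. Counts of called collagens were also taken with 1 sample left out. Against uninjured muscle they were 8 to 9, 8 to 9, 8 to 8 and 0 to 1 on days 3, 7, 14 and 21. Between consecutive times they were 0 to 1, 0 to 2 and 0 to 0. Shares of all tested genes are not given for these fits. The ranges therefore cannot show whether the collagens changed more than other genes. At day 21, 1 gene was called in the reported fit, and 3 and 2 with pseudocounts of 0.1 and 0.5 (2.82% and 2.09% of all genes higher). The count was 7 with sample quality weights (8.17%) and 8 with only the 2 groups compared (5.17%). It was 0 with no filter (0.411%), quantile scaling (1.05%), a common sum (0.287%), own read totals (0.725%) or voom (0.977%). With an FPKM minimum of 1 it was 0 of 9 (2.2%), because Col13a1, the gene called in the reported fit, was then not tested. The 8 genes were Col6a1, Col6a2, Col6a3, Col13a1, Col14a1, Col15a1, Col16a1 and Col18a1. Apart from Col13a1, their adjusted p in that limma fit ran from 0.00448 (Col6a3) to 0.0436 (Col16a1). From day 3 to day 7 the count was 1 instead of 0 with sample weights (Col14a1, higher). It was also 1 without day 3 and day 7 replicate 5 (Col8a1, lower). In the same order, those fits called 1892 and 2265 of all 14630 tested genes in either direction, against 7 in the reported fit. Those calls therefore do not set Col14a1 or Col8a1 apart from other genes. From day 7 to day 14 the count of collagens was 1 instead of 2 with an FPKM minimum of 1, sample weights and voom. It was 0 with either pseudocount, no filter, a common sum, own totals or no trend. The same held with only the 2 groups compared and without the pair of replicate 5. The cause was not tested. A common sum moved the median log2 fold change of all genes by 0.51, 0.48, 0.29 and 0.12 at the 4 times, with 46.9% of tested genes higher at day 3, and own totals by 0.40, 0.36, 0.25 and 0.12. Quantile scaling moved it by -0.12 at day 3.

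Same-numbered and same-lettered samples of different groups had median correlations of deviations from the group means of -0.0031 and 0.020. Those of other pairs were 0.0029 and 0.00067. Of 51 same-numbered and 49 same-lettered pairs, 15 each were above 0.1, within a range of -0.52 to 0.57. The check therefore cannot settle whether some of the samples were paired. With a replicate block by number 4 genes were called at day 21 (2.67% of all genes higher), and with a block by letter 6 (3.81%). Every reversed value belonged to a result that was not called. Col12a1 at day 21 became -0.050 with quantile scaling and ran from -0.024 to 0.12 with 1 sample left out. From day 3 to day 7, sample weights gave 0.016 for Col6a1, 0.019 for Col6a2, 0.14 for Col15a1, 0.20 for Col16a1 and 0.15 for Col18a1. There the block by number gave 0.0094 for Col12a1 and 0.055 for Col16a1, the block by letter 0.038 and leaving out both replicate 5 samples 0.0013 for Col16a1. With 1 sample left out Col12a1 ran from -0.24 to 0.071, Col16a1 from -0.24 to 0.11 and Col18a1 from -0.30 to 0.092. For Col13a1 a common sum, sample weights and own totals gave -0.10, -0.0018 and -0.044 from day 7 to day 14, with -0.023 to 0.099 over left-out samples. From day 14 to day 21 a common sum, the block by number and own totals gave -0.089, -0.023 and -0.059, with -0.044 to 0.094 over left-out samples. The Col6a2 to Col6a1 ratio ran from -0.027 to 0.066 for day 3 and from -0.087 to 0.0059 for day 7. By unadjusted exact p, the day 14 and day 21 differences in the Col6a3 to Col6a1 ratio were lost in 8 of 11 and 6 of 10 such fits, and the day 21 difference in the Col12a1 to Col14a1 ratio in 8 of 10.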
